A study of Mus musculus with 8 samples.

Results

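Heat shock proteins and cytosolic chaperones were examined in RNA sequencing libraries of sorted muscle stem cells (satellite cells, SCs) of control and exercise mice. The 10 genes are Hspa1a, Hspa1b, Hspa8, Hspa5, Hspb1, Hsp90aa1, Hsp90ab1, Hsph1, Dnajb1 and Cryab, chosen by name out of the 52535 gene symbols in the deposited table, and all 10 had reads. The 8 libraries came from male C57B/6J mice that were 10 weeks old when they were assigned to groups, 4 from sedentary (control) mice and 4 from mice that ran on a treadmill for 4 weeks, on 4 days per week for 30 min per day at 12 m per min. About 800 cells per library were sorted from digested tibialis anterior muscle as negative for CD45, CD11b, CD31 and Sca1 and positive for CD34 and α7-integrin, and their libraries were made with a kit for single-cell RNA. The study's legends count mice as replicates, but the labels tie no library to a mouse and do not say how long after the last run the muscle was taken. Tests measure the spread between these libraries.

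Chaperones bind unfolded proteins and help them to fold, to assemble or to be degraded. The HSP70 proteins (Hspa1a, Hspa1b, Hspa8 and, in the endoplasmic reticulum, Hspa5) hold clients in cycles of ATP hydrolysis that are started by J-domain proteins such as Dnajb1 and reset by nucleotide exchange factors such as Hsph1. The HSP90 proteins (Hsp90aa1, Hsp90ab1) act on kinases and steroid receptors, and the small heat shock proteins Hspb1 and Cryab, abundant in muscle, keep unfolding proteins from aggregating. Heat shock factor HSF1 induces Hspa1a, Hspa1b, Dnajb1, Hsph1 and Hsp90aa1 under stress, including muscle contraction and the enzymatic release of cells from tissue, whereas Hspa8 and Hsp90ab1 are the constitutive forms.

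Hspa1a and Hspa1b are neighbouring genes of 1 exon each that encode nearly the same protein. In the GRCm38 coordinates of the table Hspa1a lies on chr17:34969190-34972156 and Hspa1b on chr17:34956436-34959238, both on the minus strand. Dnajb1 lies on the plus strand of chr8:83608193-83612653 and Hspb1 on the plus strand of chr5:135887919-135889563. The 250 bases before a RefSeq transcript start of these 4 genes are shown since Hspa1a and Hspb1 had separate groups, Hspa1b is the near-copy of Hspa1a, and Dnajb1 had the widest range. They come from RefSeq (GRCm38.p6), read 5′ to 3′ on the strand of the gene. RefSeq gives 2 windows for Dnajb1, and the one shown is nearest to the start in the deposited table but ends slightly upstream of it. Capitals mark pairs of inverted heat shock units, the letters GAANNTTC or TTCNNGAA, which are parts of the longer sites that HSF1 binds:
Hspa1a, chr17:34972157-34972406, minus strand: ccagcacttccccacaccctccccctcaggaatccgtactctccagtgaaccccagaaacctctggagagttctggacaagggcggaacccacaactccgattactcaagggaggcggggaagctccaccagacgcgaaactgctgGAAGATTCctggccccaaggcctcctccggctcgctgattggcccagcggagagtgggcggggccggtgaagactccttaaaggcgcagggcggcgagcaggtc
Hspa1b, chr17:34959239-34959488, minus strand: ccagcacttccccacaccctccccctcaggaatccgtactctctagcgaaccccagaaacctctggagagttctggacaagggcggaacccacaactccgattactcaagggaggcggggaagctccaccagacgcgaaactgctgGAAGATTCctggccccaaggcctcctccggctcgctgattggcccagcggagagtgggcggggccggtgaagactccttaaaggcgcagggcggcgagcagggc
Hspb1, chr5:135887669-135887918, plus strand: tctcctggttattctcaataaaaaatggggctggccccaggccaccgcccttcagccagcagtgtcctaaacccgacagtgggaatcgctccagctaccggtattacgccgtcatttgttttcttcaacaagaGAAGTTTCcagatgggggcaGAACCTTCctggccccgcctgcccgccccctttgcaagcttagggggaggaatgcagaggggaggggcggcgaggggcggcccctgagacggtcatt
Dnajb1, chr8:83607925-83608174, plus strand: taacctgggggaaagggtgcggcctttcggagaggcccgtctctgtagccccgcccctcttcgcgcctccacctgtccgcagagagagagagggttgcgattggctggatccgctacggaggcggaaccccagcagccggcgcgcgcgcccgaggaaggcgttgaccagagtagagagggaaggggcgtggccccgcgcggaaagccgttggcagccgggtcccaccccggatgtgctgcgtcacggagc

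The windows of Hspa1a and Hspa1b differed at 3 positions only, counted from 1 at the 5′ end with the base of Hspa1a first: C44T, T47C and T249G. Both hold the pair GAAGATTC, 104 bases before the start. Hspb1 holds GAAGTTTC and GAACCTTC, and Hsph1, in the window nearest its annotated start, holds TTCTCGAA. No such pair is in the window printed for Dnajb1, and the other window of that gene is not shown. Either pair of letters, read on both strands, occurs in 12.8% of all 32851 windows of the table, so that a match is common by letters alone. Hspa5 holds instead the endoplasmic reticulum stress element, CCAAT and CCACG with 9 bases between them, as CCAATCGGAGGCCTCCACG, which occurs in 0.113% of windows. RefSeq windows were matched for 6 of the 10 genes.

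The libraries must be described before the values. Reads on genes numbered 2339966 to 3013354 in control and 1011737 to 1200221 in exercise libraries, and 5169 to 7306 genes had reads in control against 2348 to 3289 in exercise libraries. Mitochondrial transcripts took 50.2% of the reads in exercise 3 and 68.7% in exercise 4, against 2.09% to 15.3% in the other 6. Values are FPKM, that is, reads per unit of gene length after division by the size of the library, and that size was a median-of-ratios factor in place of the read total. The factor was 0.167 in exercise 4 and 0.643 to 2.31 in the others, so that 1 read counts for more FPKM in exercise 4. Exercise 1 and 2 were far closer to each other than any other pair (chi-square per degree of freedom 3.86, against 82.6 to 721).

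Control 4 and exercise 3 resembled sums of other libraries. By genes found in 1 library and not in the other, control 4 held 0.281 of control 1 plus 0.714 of control 3, and exercise 3 held 0.299 of exercise 1 plus 0.677 of exercise 4. None of the 10 genes was used to set these weights. The weighted sums came close to the members too, with observed values of 0.870 to 1.52 times the sum, the highest ratios being those of Hspb1 with few reads. Dnajb1 in exercise 3 had 18524 RPM (reads as a share of the read total) against a weighted sum of 18214. The 4 values of a group are thus possibly fewer than 4 independent measurements, and the log2 fold changes of all members are also given from a fit without control 4 and exercise 3 and with exercise 1 and 2 averaged.

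**Figure D1:**
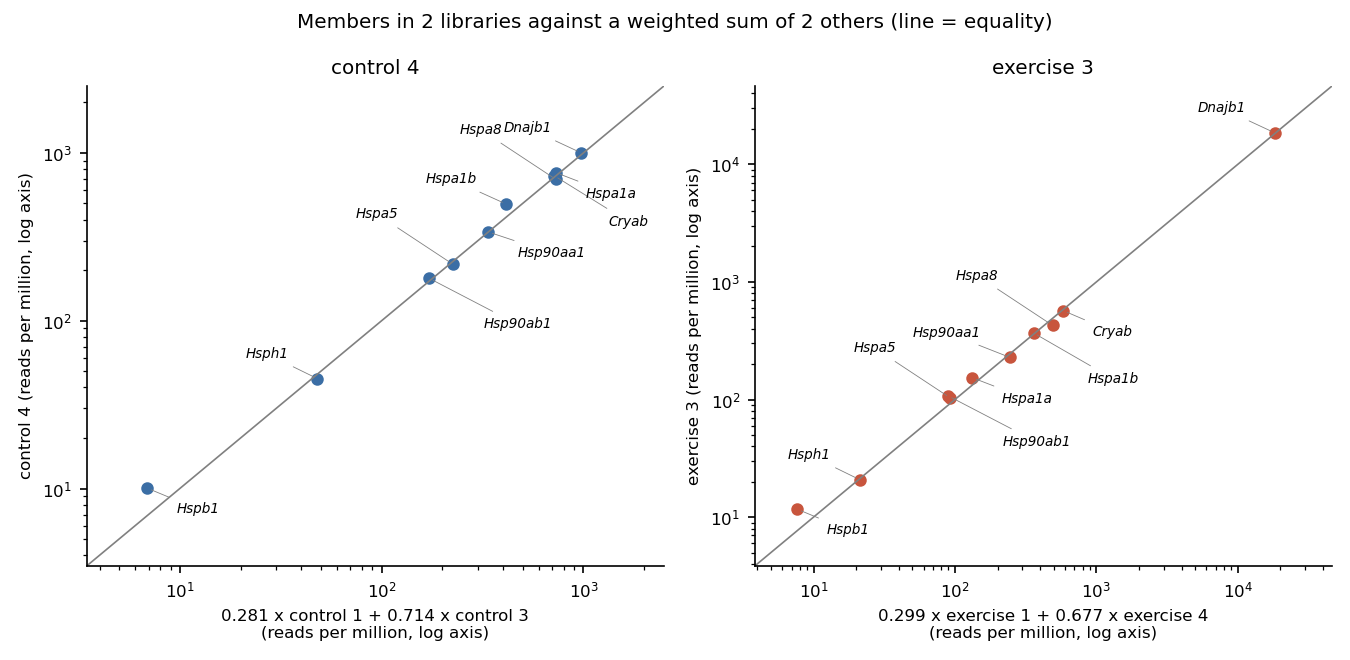
RPM of the 10 members in control 4 (left) and exercise 3 (right), on log axes, against the weighted sum of 2 other libraries, with the line of equality. The points follow the line, up to Dnajb1 at 18524 RPM in exercise 3, and only Hspb1 lies more than 1.4 times above it.

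Several defining markers of satellite cells were not seen in the RNA. Pax7, which defines SCs, and Cdh15, Itga7 and Calcr had no read in any of the 8 libraries, although α7-integrin, the product of Itga7, was used for the sort. A 0 in these data need not mean no expression, since the myofibre gene Tnnc2 was also at 0 where Tnni2 had 468 to 6738 FPKM. Of 11 satellite cell markers 7 had reads, led by Sdc4, Des and Cd34, with a summed level of 43.7 to 73.3 FPKM in control and 67.1 to 124 FPKM in exercise libraries. Myofibre genes, led by Acta1, Mylpf and Myh4, summed to 32696 to 56182 FPKM in control and 19593 to 59489 FPKM in exercise libraries, with Tnnc2 at 0 and 11 of 12 genes with reads. As a share of reads they were lower in every exercise library (3.37% to 5.63%) than in any control library (8.19% to 11.7%). Of the 10 myofibre genes tested 1 (10%) was called, against 35.6% of all genes. It was Myh1, lower in exercise (log2 fold change -2.75, limma adjusted p = 0.0174). Fibro-adipogenic genes (7 of 7, led by Gsn, Dcn and Lum) summed to 2578 to 3567 FPKM in control and 3595 to 9401 FPKM in exercise libraries, mostly through Gsn and Dcn. As a share of reads this sum overlapped, with 1.64% to 1.73% in control and 0.386% to 5.41% in exercise libraries. Where 8.78% of all genes tested were called higher and 26.8% lower in exercise, 2 of the 7 genes were called higher and none lower. These were Lum (log2 fold change 2.02, limma adjusted p = 0.0229) and Gsn (1.60, adjusted p = 0.0485), while the defining marker Pdgfra, with 2.42 to 7.99 FPKM in exercise against 9.44 to 35.0 FPKM in control libraries, was not called (adjusted p = 0.084). No read fell on the 8 immune markers (Ptprc, Itgam, Adgre1, Cd68, Lyz2, Cd3e, S100a8 and S100a9). Of the endothelial markers Pecam1, Cdh5, Fabp4 and Cldn5 were at 0 and Flt1 was at most 0.145 FPKM, while Kdr was at 0 in control 1, at 2994, 1669 and 1076 FPKM in control 2 to 4 and at most 0.53 FPKM in exercise libraries. It was the only endothelial gene tested and was called lower (log2 fold change -7.82, limma adjusted p = 0.0281). Smooth muscle and pericyte genes summed to 2.88 to 46.1 FPKM in control and 5.72 to 89.3 FPKM in exercise libraries, with Rgs5 and Cspg4 at 0. Of this list Myh11 was at 0 in all control libraries and at 70.1, 71.5, 35.6 and 3.14 FPKM in exercise 1 to 4 (limma adjusted p = 0.00646). Acta2 differed the other way, with 43.3 and 35.1 FPKM in control 3 and 4 and at most 2.03 FPKM in exercise libraries, but was not called (log2 fold change -1.96, adjusted p = 0.22), and neither was Pdgfrb (adjusted p = 0.287). Haemoglobin genes (Hbb-bs, Hbb-bt and Hba-a1 leading) reached 119 FPKM in control 3 and 57.1 FPKM in control 4, and at most 1.56 FPKM in exercise libraries. In such bulk samples fewer cells of a type and less RNA per cell cannot be told apart.

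To ask whether exercise changed chaperone transcripts, each gene was compared between the groups by limma on log2(FPKM + 1), with Benjamini-Hochberg adjustment over the 4328 genes whose mean level reached 1 FPKM. None of the 10 members passed an adjusted p of 0.05, where 35.6% of all genes tested did, 8.78% as higher and 26.8% as lower in exercise. Among the genes at least as abundant as Hsph1, the lowest member, the share was 41%. At an unadjusted p under 0.05 the count was 1 of 10 (Hspa1a), against 49.6% of all genes, and limma voom on the recovered reads likewise called 0 at the adjusted and 1 at the unadjusted threshold. Control and exercise ranges were separate for 2 of 10 members, Hspa1a (lower) and Hspb1 (higher), against 31.6% of all genes tested, 7.62% as higher and 24% as lower in exercise. The median log2 fold change was 0.22 over the members and -1.42 over all genes, and 6 members had a positive and 4 a negative value. The median of all genes depends on the filter, and was -0.80 with 1 FPKM required in 4 libraries and -0.32 with no filter on low values. With a pseudocount of 0.1 it was -2.59, and Hspa1a, at -2.33 in that fit, lay above it. With exercise 1 and 2 averaged and control 4 and exercise 3 left out, the log2 fold changes were 3.42 for Dnajb1, 1.01 for Hspa1b, 0.91 for Hspb1, 0.83 for Cryab, 0.47 for Hspa8, 0.26 for Hsph1, 0.24 for Hsp90aa1, -0.26 for Hsp90ab1, -1.05 for Hspa5 and -3.12 for Hspa1a. An exact two-sided permutation test over the 70 assignments of libraries to groups is given beside single genes, and cannot fall below 0.0286.

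**Figure D2:**
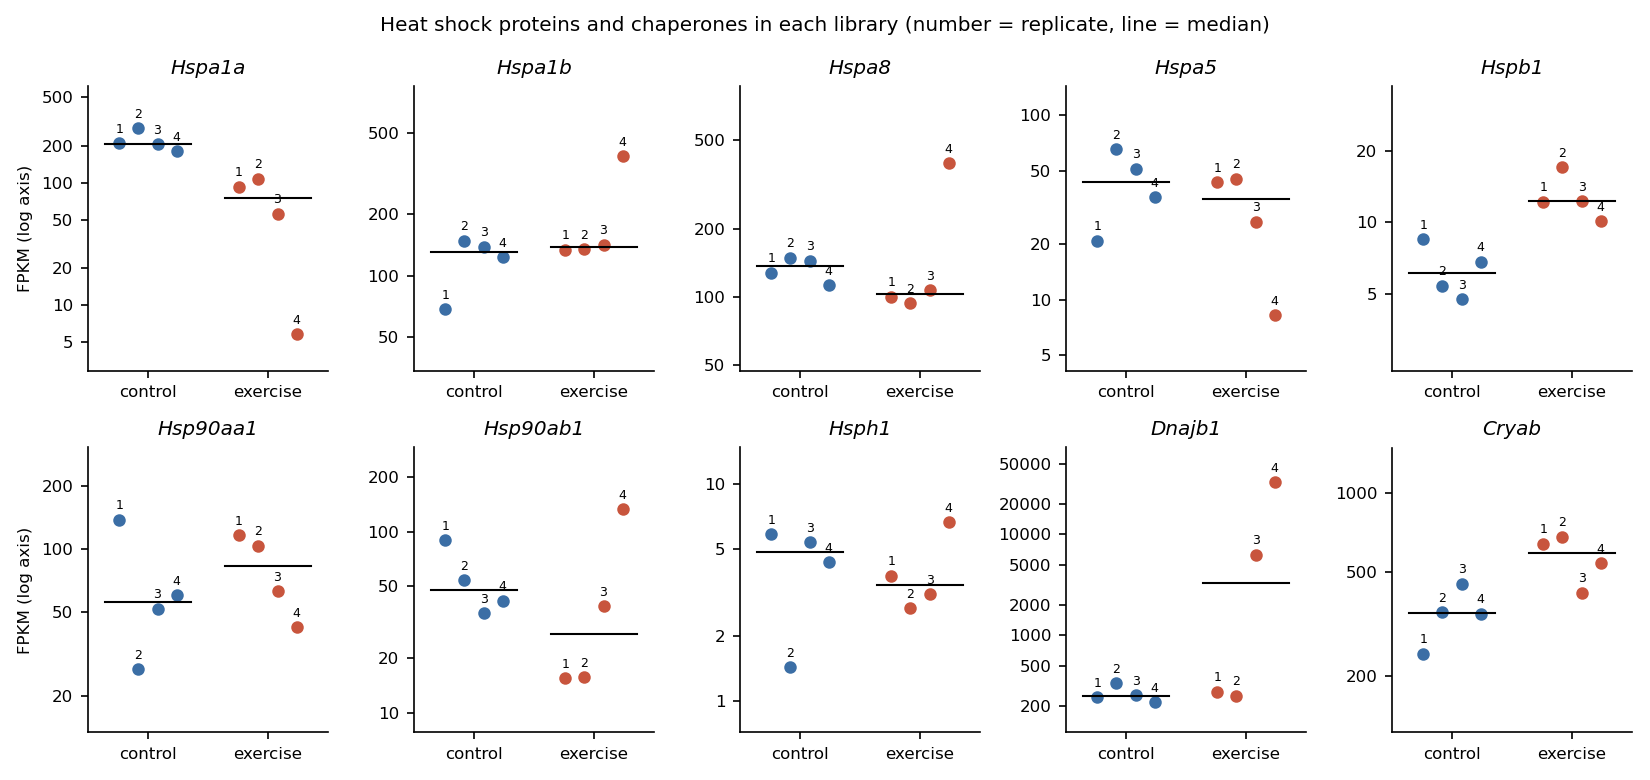
FPKM of the 10 members in each library, on log axes with a range of its own in each panel; points are libraries numbered by replicate and lines are medians of 4. Hspa1a is lower in all 4 exercise libraries, Dnajb1 reaches 6259 and 32894 FPKM in exercise 3 and 4, and Hspa1b and Hspa8 stand apart in exercise 4.

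Hspa1a, the inducible HSP70, had 208, 278, 205 and 179.6 FPKM in control 1 to 4 and 92.5, 107, 55.9 and 5.85 FPKM in exercise 1 to 4. Every exercise library lay below every control library. The means were 218 ± 42.2 FPKM in control and 65.4 ± 45.2 FPKM in exercise (SD, n = 4), a 3.33-fold lower level. Exercise 4 was the lowest and rested on 5 reads, for which the exact 95% Poisson interval of 1.90 to 13.6 FPKM covers counting error only. The log2 fold change was -2.28 (SE 0.92, limma adjusted p = 0.0724, exact permutation p = 0.0286). Without exercise 4 it was -1.38 with an adjusted p of 0.0374, the only fit among the 20 alternatives that called Hspa1a, and adjusted p-values over these alternatives ran from 0.0374 to 0.471. Its groups did not overlap either when libraries were scaled to their read totals.

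The near-identical neighbour Hspa1b showed no such separation of the groups. It had 68.6, 148, 139 and 124 FPKM in control 1 to 4, and 134, 135, 142 and 386 FPKM in exercise 1 to 4. Exercise 4 was the highest and control 1 the lowest, and the other 6 libraries lay together between 124 and 148 FPKM. Means were 120.0 ± 35.8 and 199 ± 125 FPKM (SD, n = 4), and the log2 fold change was 0.62 (SE 0.64, limma adjusted p = 0.43, exact permutation p = 0.286). It was 0.25 without exercise 4 and 0.37 without control 1. This order depends on the scale, since by read totals exercise 4 was the lowest exercise library, with 96.3 RPKM against 131 to 213 in the others, and the log2 fold change was 0.16.

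The ratio of Hspa1a to Hspa1b, which does not depend on the scale of a library, was 3.04, 1.87, 1.47 and 1.45 in control 1 to 4. It was 0.689, 0.795, 0.394 and 0.0151 in exercise 1 to 4, so that Hspa1a was the more abundant of the pair in every control library and the less abundant in every exercise library. Their summed level, by contrast, overlapped, with 277 to 427 FPKM in control and 198 to 392 FPKM in exercise libraries. Reads can be split between these genes, since 46.0% of the 150-base windows of the Hspa1a transcript occur without mismatch in another gene, 38.1% in Hspa1b, and 40.5% of those of Hspa1b occur in Hspa1a. How the counting treated such reads is not given in the sources used here, and its part in the ratio was not tested. Windows stand for single reads, while the study sequenced read pairs, so that these shares may overstate what is ambiguous.

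Dnajb1, the J-domain partner of HSP70, had the widest range of the members. Control 1 to 4 had 243, 334, 256 and 219 FPKM, and exercise 1 to 4 had 278, 252, 6259 and 32894 FPKM. Exercise 1 and 2 lay within the control range, while exercise 3 and 4 lay far above it. The gene took 2.63% of all reads in exercise 4 (30373 reads) and 1.85% in exercise 3 (22233 reads), against 0.0764% to 0.141% in the other 6 libraries. Means were 263 ± 49.8 and 9921 ± 15574 FPKM (SD, n = 4), with a log2 fold change of 2.91 (SE 1.43, limma adjusted p = 0.128, exact permutation p = 0.2). Without exercise 4 the log2 fold change was 1.55. Scaled to read totals, all 4 exercise libraries lay above the control libraries, with 398 to 8203 against 238 to 384 RPKM (reads per length and read total). Mitochondrial reads and Dnajb1 were both high in exercise 3 and 4, and since exercise 3 resembled a sum that holds 0.677 of exercise 4, these 2 libraries may not be independent measurements of the high level. None of the 150-base windows of the Dnajb1 transcript occurred in another gene.

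Hsph1, the HSP110 exchange factor of HSP70, was the least abundant member. Its levels were 5.88, 1.44, 5.39 and 4.35 FPKM in control and 3.79, 2.67, 3.10 and 6.69 FPKM in exercise 1 to 4, from 14 to 153 reads. The groups overlapped, although exercise 4 was the highest and control 2 the lowest of the 8 libraries, with means of 4.27 ± 1.99 and 4.06 ± 1.81 FPKM (SD, n = 4) and a log2 fold change of -0.01 (SE 0.64, limma adjusted p = 0.988). The sign of this value changed in 9 of the 20 alternatives.

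Of the constitutive members, Hspa8, the housekeeping HSP70, had 129, 149.95, 145 and 113 FPKM in control 1 to 4 and 100.4, 94.1, 107 and 395 FPKM in exercise 1 to 4. Exercise 1 to 3 lay below every control library and exercise 4 above every one. The means were 134 ± 16.9 and 174 ± 147 FPKM (SD, n = 4), and the log2 fold change was 0.09 (SE 0.67, limma adjusted p = 0.918). Without exercise 4 it was -0.41, and scaled to read totals it was -0.38. On that scale exercise 4 was the lowest of the 8 libraries, with 98.4 RPKM against 99.2 to 188 in the others. The Hspa8 transcript shares 56.0% of its 150-base windows with other genes, mostly with the gene model Gm26825, which had no read in any library.

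Hsp90ab1, the constitutive HSP90, had 90.0, 53.9, 35.4 and 41.7 FPKM in control and 15.6, 15.7, 38.8 and 133 FPKM in exercise 1 to 4. Exercise 1 and 2 were the lowest of the 8 libraries and exercise 4 the highest. Means of 55.2 ± 24.4 and 50.8 ± 55.9 FPKM (SD, n = 4) gave a log2 fold change of -0.60 (SE 0.84, limma adjusted p = 0.561). It was -1.25 without exercise 4, -0.34 without control 1 and -0.24 without either exercise 1 or exercise 2. Scaled to read totals the groups did not overlap, with 45.8 to 88.2 in control and 24.6 to 35.8 RPKM in exercise libraries.

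Hsp90aa1, its inducible paralogue, had 138, 26.8, 51.9 and 60.1 FPKM in control and 116, 103, 62.9 and 42.4 FPKM in exercise 1 to 4. The groups overlapped throughout, with means of 69.2 ± 48.0 and 81.3 ± 34.5 FPKM (SD, n = 4) and a log2 fold change of 0.36 (SE 0.73, limma adjusted p = 0.694). With single libraries left out it ran from -0.0046 (without control 2) to 0.77 (without control 1). The Hsp90aa1 transcript shares 36.2% of its 150-base windows with other genes, mostly with the gene model Gm12346, which had 34, 5, 3 and 10 reads in control and 50, 43, 63 and 4 reads in exercise 1 to 4. Within libraries the ratio of Hsp90aa1 to Hsp90ab1 was 0.498 to 1.53 in control and 7.48, 6.60, 1.62 and 0.318 in exercise 1 to 4. It was highest in exercise 1 and 2 and lowest in exercise 4, so that the exercise libraries stood on both sides of the control libraries.

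The contrast of inducible (Hspa1a, Hspa1b, Dnajb1, Hsph1) with constitutive members (Hspa8, Hsp90ab1) was taken within each library as the difference of their mean log2(FPKM + 1). It was -0.63, -0.25, 0.19 and 0.04 in control 1 to 4 and 0.65, 0.61, 0.87 and -0.52 in exercise 1 to 4. In exercise 1 to 3 the inducible genes stood higher against the constitutive ones than in any control library. In exercise 4 they stood nearly as low as in control 1. In exercise 1 and 2 this was not a higher inducible mean, which lay below every control library (5.93 in exercise 2, against at least 6.14). The constitutive mean was lower there, at 5.36 and 5.32 against 6.12 to 6.76 in control libraries. In exercise 3 the inducible mean was above the control libraries, at 6.91. The group means of the contrast were -0.16 ± 0.36 and 0.40 ± 0.62 (SD, n = 4), a difference of 0.57 with a pooled SD of 0.51 between libraries. It was 0.29 with exercise 1 and 2 averaged and control 4 and exercise 3 left out, and 0.87 without exercise 4. The inducible genes did not move as 1 group, since Hspa1a was lower and Dnajb1 higher in exercise 3 and 4. With Dnajb1 left out the difference between groups was -0.30, the opposite sign. The ratio of Dnajb1 to Hspa8 was 1.76 to 2.23 in control and 2.77, 2.68, 58.3 and 83.4 in exercise 1 to 4, and that of Hspa1a to Hspa8 was 1.41 to 1.85 in control and 0.922, 1.14, 0.521 and 0.0148 in exercise 1 to 4. Neither pair of groups overlapped, and they differed in opposite directions.

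**Figure D3:**
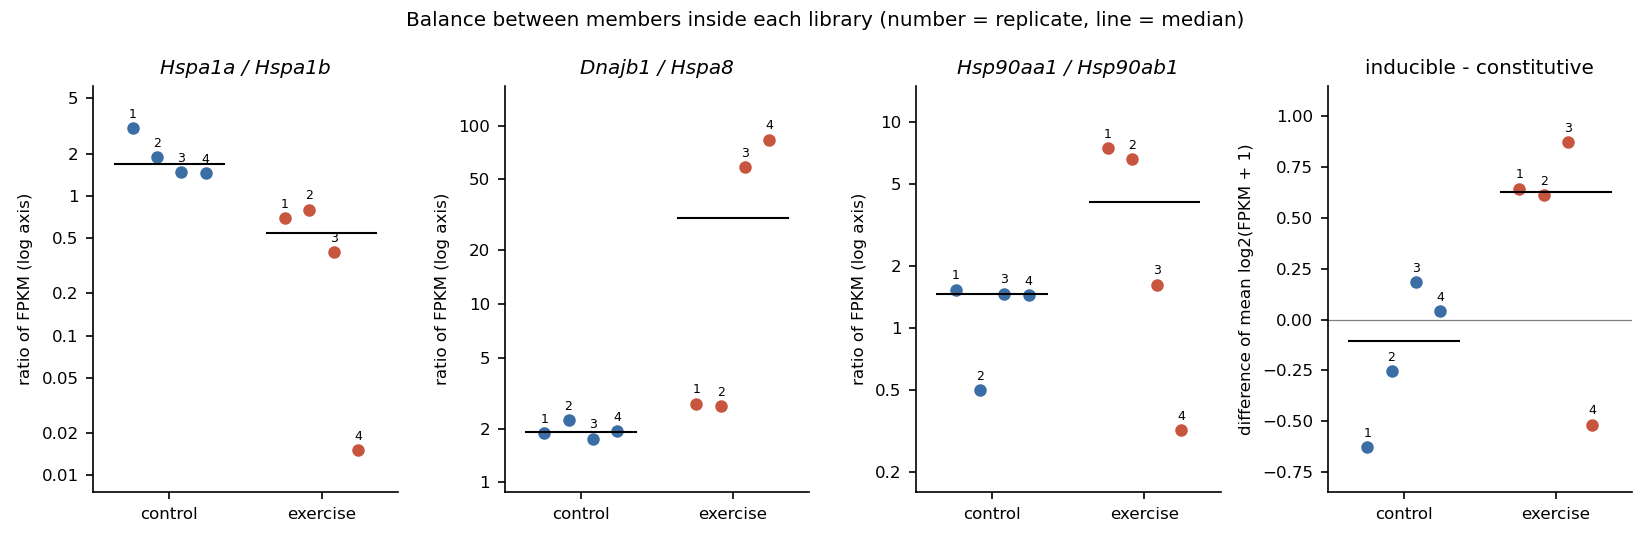
Ratios of FPKM between members (log axes) and the difference of mean log2(FPKM + 1) between inducible and constitutive members (linear axis) in each library; points are libraries numbered by replicate and lines are medians of 4. The ratio of Hspa1a to Hspa1b is above 1.45 in control and below 0.795 in exercise libraries, and that of Dnajb1 to Hspa8 reaches 58.3 and 83.4 in exercise 3 and 4.

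Cryab (αB-crystallin), a small heat shock protein of the sarcomere, was the most abundant member in control libraries. It had 243, 351, 451 and 346 FPKM in control 1 to 4 and 643, 682, 417 and 542 FPKM in exercise 1 to 4. Only exercise 3 fell within the control range, below control 3. Means were 348 ± 84.9 and 571 ± 119 FPKM (SD, n = 4), 1.64-fold higher in exercise, with a log2 fold change of 0.72 (SE 0.51, limma adjusted p = 0.253, exact permutation p = 0.0571). Scaled to read totals it was 0.26, with exercise 4 the lowest of the 8 libraries (135 RPKM), and scaled to equal sums of FPKM it was 0.012. The antisense neighbour Hspb2 overlaps 10.6% of the windows of the Cryab transcript, and strand use in the counting is not given in the sources used here.

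Hspb1, the other small heat shock protein, had 8.46, 5.38, 4.72 and 6.82 FPKM in control and 12.2, 17.0, 12.2 and 10.1 FPKM in exercise 1 to 4. All 4 exercise libraries lay above all control libraries, with means of 6.34 ± 1.66 and 12.9 ± 2.93 FPKM (SD, n = 4). The difference was 2.03-fold in the means and 0.92 in the fitted log2 fold change (SE 0.60, limma adjusted p = 0.221, exact permutation p = 0.0286). These values rested on 14 to 28 reads per library and on 3 reads in exercise 4, for which the exact 95% Poisson interval is 2.08 to 29.5 FPKM. The Hspb1 transcript shares 36.6% of its 150-base windows with the pseudogene Hsp25-ps1, which had 4, 1, 8 and 5 reads in control 1 to 4 and none in exercise libraries. With those reads added to Hspb1, control 1 (10.15 FPKM) was level with exercise 4 (10.1 FPKM), so that the separation of the groups rests on where such reads were placed. Scaled to read totals the groups overlapped as well, and under quantile normalization Hspb1 had an adjusted p of 0.0315.

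Hspa5 (BiP), the HSP70 of the endoplasmic reticulum and a target of the unfolded protein response, had 20.8, 65.6, 51.3 and 36.0 FPKM in control and 43.4, 45.2, 26.4 and 8.21 FPKM in exercise 1 to 4. Exercise 4 was the lowest, from 10 reads, and the other exercise libraries lay within the control range. Means were 43.4 ± 19.3 and 30.8 ± 17.3 FPKM (SD, n = 4), with a log2 fold change of -0.61 (SE 0.77, limma adjusted p = 0.521). Without exercise 4 it was -0.095, and without control 2 it was -0.38.

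**Figure D4:**
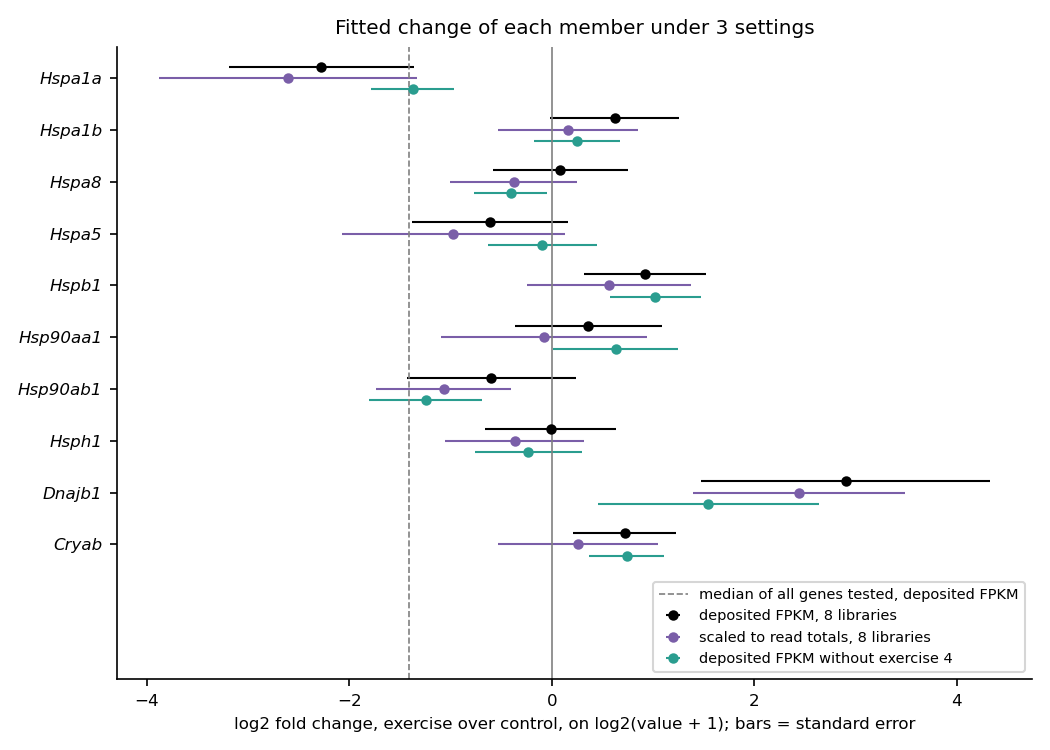
Log2 fold change (exercise over control) of each member with its standard error, from the deposited FPKM of all 8 libraries, from values scaled to read totals, and from the deposited FPKM without exercise 4. The dashed line is the median of all genes tested, -1.42, in the fit of the deposited FPKM of all 8 libraries, where only Hspa1a lies below it. Without exercise 4 Hspa1a was at -1.38, above the line. The medians of the other fits, -1.62 scaled to read totals and -1.46 without exercise 4, are not drawn.

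In control libraries the members were ordered by mean level as Cryab, Dnajb1, Hspa1a, Hspa8, Hspa1b, Hsp90aa1, Hsp90ab1, Hspa5, Hspb1 and Hsph1. Neighbours in this order had overlapping ranges, except that Hspa1a lay above Hspa8 and Hspa5 above Hspb1 in all control libraries. In exercise libraries Dnajb1 came first by the mean, through exercise 3 and 4 (in exercise 1 and 2 Cryab stood above it), and Hspa1a was 6th, behind Cryab, Hspa1b, Hspa8 and Hsp90aa1, and the neighbours without overlap there were Cryab above Hspa1b and Hspb1 above Hsph1. Summed over the members without Dnajb1 the level was 911 to 1090 FPKM in control and 865 to 1529 FPKM in exercise libraries, with overlap. Dnajb1 made up 19.0% to 23.6% of the summed member level in control, and 19.3%, 17.3%, 87.9% and 95.6% in exercise 1 to 4.

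The genes whose log2(FPKM + 1) followed Hspa1a most closely over the 8 libraries were Ctsl (r = 0.991), Gpx7 (r = 0.989) and Rpl22 (r = 0.987), among 4318 genes compared. For Hspa8 they were Dbi (r = 0.986), the pseudogene Rps12-ps9 (r = 0.966) and the gene model Gm10059 (r = 0.964), the last of which may share reads with close copies. These correlations describe 8 libraries that may not all be independent. Exercise 4, lowest for Hspa1a and, on the deposited scale only, highest for Hspa8, weighs most in them.

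Immediate early genes, which like Hspa1a are induced when tissue is dissociated, were measured beside the members. Their 14 genes, led by Fos, Ier3 and Egr1, summed to 2265 to 4489 FPKM in control and 782 to 1331 FPKM in exercise libraries, so that the groups did not overlap. Of the 13 tested, 1 was called higher and 2 were called lower in exercise, a share of 23.1% that is under the 35.6% of all genes. The part of dissociation, of the mitochondrial share or of other cell types in the levels of the members was not tested.

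The wider chaperone system held 108 further genes in 9 classes, of which 91 had reads and 62 were tested. Among these 24 (38.7%) passed an adjusted p of 0.05, close to the 35.6% of all genes, with 23 lower and 1 higher in exercise. The median log2 fold change of the 62 was -1.73, beside -1.42 over all genes, and 52 had a negative value. By class, 5 of 16 J-domain genes, 4 of 10 chaperonin genes, 2 of 2 prefoldin genes, 6 of 15 co-chaperones, 2 of 5 small heat shock genes, 1 of 4 HSP70 genes and 3 of 8 genes of the endoplasmic reticulum were called lower, and the only HSP90 gene and the only gene of the heat shock factor class tested were not called. With exercise 1 and 2 averaged as 1 sample the count was 6 (Dnajc21, Hspd1, Pdia6, Pfdn1, Pfdn5 and Ptges3), and when control 4 and exercise 3 were dropped as well it was 0, as was the count over all genes (469 genes at an unadjusted p under 0.05).

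Over the 62 genes 25 had separate groups, 23 lower and 2 higher in exercise, where 31.6% of all genes tested had them (24% lower). Of the 24 called genes 16 were among these, all lower, and are described here. Where no exercise library had a read, 1 read in each control library was enough to separate the groups. The lowest control library had 1 read for Bag6 and for Dnajc15 and 2 reads for Cct3. Such genes reached a mean of 1 FPKM through the control libraries only. Chaperonins fold actin and tubulin in the cytosol and imported proteins in mitochondria. Hspd1, the mitochondrial HSP60, fell most clearly among them, from 54.4 ± 19.5 to 0.376 ± 0.295 FPKM (SD, n = 4; log2 fold change -5.30, limma adjusted p = 0.000681). The subunits Cct3, Cct6a and Cct7 of the cytosolic TRiC complex fell as well, with log2 fold changes of -2.82, -2.01 and -1.77. The subunits Cct2, Cct4, Cct5 and Cct8 (-0.58, -2.39, -1.44 and -2.85) and Tcp1 (0.59) were not called (limma adjusted p from 0.0524 to 0.775). Prefoldin, which passes nascent chains to TRiC, fell in Pfdn1 (126 ± 98.8 to 0.291 ± 0.582 FPKM) and Pfdn5 (61.6 ± 13.6 to 3.39 ± 2.504 FPKM).

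Among partners of HSP70 and HSP90, the p23 co-chaperone Ptges3 fell from 90.9 ± 55.0 to 3.92 ± 2.96 FPKM (SD, n = 4; limma adjusted p = 0.00825). St13 (Hip), Bag6 and the immunophilin Fkbp4 had control means of 4.29, 2.89 and 2.25 FPKM and no read in any exercise library. Of the J-domain genes, Dnaja2, Dnajb11, Dnajc15 and Dnajc21 fell, and Dnaja2, a cytosolic HSP70 partner, went from 14.4 ± 9.40 to 1.10 ± 0.859 FPKM. Of the disulfide isomerases of the endoplasmic reticulum Pdia6 fell from 75.5 ± 43.6 to 2.27 ± 1.56 FPKM and Pdia3 from 3.29 ± 1.81 to 0.0718 ± 0.144 FPKM, while Pdia4 (log2 fold change -1.90, limma adjusted p = 0.057) and P4hb (0.61, adjusted p = 0.686) did not pass the test. The log2 fold changes of the 16 genes ran from -6.11 to -1.37, and 6 of the 16 were called with exercise 1 and 2 averaged. The rule took separate groups in either direction, so that separation fixes the sign of each gene but not a fall. The 2 genes with separate groups and higher levels in exercise, Hspa9 and Bag1, were not called (limma adjusted p = 0.0729 and 0.0862).

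Exercise libraries held fewer reads, so low levels there are limited by depth. In 7 of the 16 no exercise library had a read. With 3 reads set in each exercise library in place of 0, Cct3 was 13.9-fold and Dnajc21 4.84-fold lower by the means. This setting allows for counting error only. It leans on exercise 4, where 3 reads on a gene of 1 kb are 10.4 FPKM, against 1.79 to 2.71 FPKM in exercise 1 to 3. The same value was 4.08-fold for Cct7, 4.28-fold for Bag6 and 3.53-fold for St13. It rested on control 1 for Dnajc15 (9.74-fold lower, and 2.71-fold without control 1) and for Fkbp4, whose value of 1.5-fold became 0.823, no longer a lower level. The other 8 called genes had overlapping groups and are named here after their values were seen. Hspa13, Dnajc4, Hspb3, Hspb8, Bag5, Fkbp8 and Manf were lower, and Serpinh1 (HSP47), the collagen chaperone, was higher, at 9.16 ± 4.76 in control and 75.0 ± 50.1 FPKM in exercise (SD, n = 4; limma adjusted p = 0.0457). It was called in 7 of 20 alternatives, and not when scaled to read totals (adjusted p = 0.161) or to equal sums (0.225), with adjusted p-values from 0.00413 to 0.494. Serpinh1 was high in exercise 1 to 3, with 110.2, 119.5 and 59.1 FPKM, and at 11.4 FPKM in exercise 4, in the same order over the 4 exercise libraries as the summed fibro-adipogenic level, whose part in it was not tested.

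**Figure D5:**
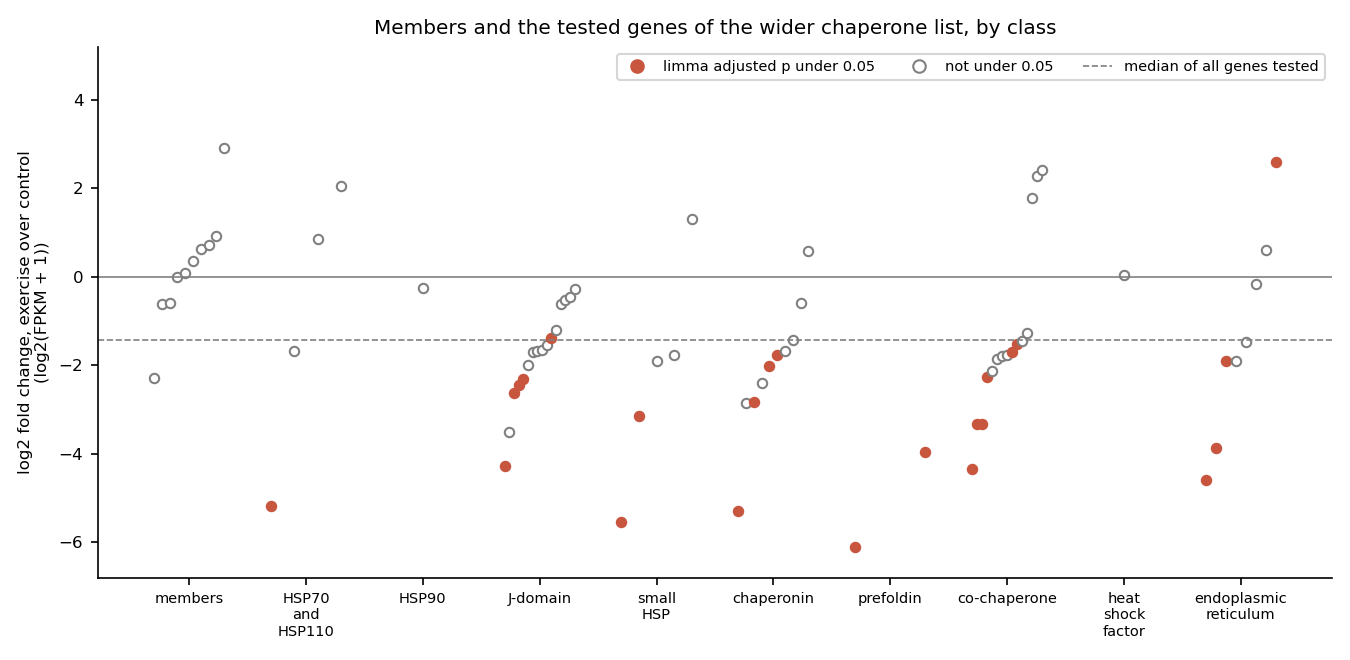
Log2 fold change (exercise over control) of the 10 members and of the 62 tested genes of the wider chaperone list by class; filled points have a limma adjusted p under 0.05. The dashed line is the median of all genes tested, -1.42; no member is filled, and 23 of the 24 filled points lie below 0.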

How the data were processed

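The authors deposited 1 table of FPKM values. By their methods and labels, paired reads of 150 bases were aligned with Bowtie 0.12.9 to mm10, FPKM came from Cufflinks 2.1.1 and reads were counted with HTSeq. FPKM multiplied by gene length gave whole multiples of 1 step in 100% of values (tolerance 0.001), so the reads were recovered. The deposited values thus appear to come from read counts and a median-of-ratios factor rather than from Cufflinks. Rows that share a symbol were summed (101 fewer). Coordinates are those of the table, the same as in GENCODE M21 for all 10 members.

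Genes whose mean level reached 1 FPKM were tested on log2(FPKM + 1), which understates changes of low genes, with limma 3.58.1 in R 4.3.3 (lmFit, eBayes with trend, Benjamini-Hochberg), checked on simulated data. The members, the wider chaperone and marker lists and the tests were chosen with earlier results of these data known. The rule for named genes took all members, wider-list genes with an adjusted p under 0.05 and separate groups, the 3 highest genes of each marker list with defining markers at 0, and the 3 genes most like Hspa1a and Hspa8. Weights of mixed libraries used genes with at least 50 reads in 1 library and 0 in the other. Promoters were matched by symbol. Samples were grouped by treatment label. Depth was 1011737 to 3013354 reads, and intervals cover counting error only. The alternatives were another pseudocount (0.1), other filters, scalings and row choices, no trend, the replicate number as a block, voom, and fewer libraries.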

Additional observations from a re-analysis of the deposited data

Results flagged for a closer look

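Hspa1b in exercise 4 stood at 8.60 on the log2(FPKM + 1) scale, with the other 3 exercise libraries between 7.08 and 7.16. Hspa8 in exercise 4 stood at 8.63, with the others between 6.57 and 6.76. Both lay farther from the rest of their group than Dixon's criterion for a distant value allows. Over the 22 groups checked, chance flags about 1 in 20, and both values come from the same library, the one with the smallest size factor (0.167). Scaled to read totals, exercise 4 was instead the lowest exercise library for both genes, at 96.3 and 98.4 RPKM.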

How the results depend on the processing

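Of the 10 members, none had an adjusted p under 0.05 in the fit reported and 1 did under quantile normalization (Hspb1) and without exercise 4 (Hspa1a), so that leaving out single libraries gave 0 to 1. The all-gene count of 1541 was 840 with no filter on low values, 941 under quantile normalization (566 higher, 375 lower), 596 with exercise 1 and 2 averaged, 0 when control 4 and exercise 3 were dropped as well, and 527 (without exercise 3) to 1899 (without control 1) with single libraries left out. The wider chaperone count of 24 was 9 with no filter, 15 with 1 FPKM required in 4 libraries, 10 under quantile normalization (3 higher, 7 lower), 6 and 0 in the 2 fits with exercise 1 and 2 averaged, and 6 to 28 with single libraries left out. It was 6 without any 1 of control 4, exercise 1, exercise 2 or exercise 3, 13 without control 2, 9 without control 3 and 14 without exercise 4. Scaled to equal sums, Hspa1b (-0.087), Hspa8 (-0.63) and Hsp90aa1 (-0.33) turned negative, as did Hspa8 (-0.38) and Hsp90aa1 (-0.077) scaled to read totals, Hspa8 (-0.064) under voom, Hspa8 without exercise 4 (-0.41 to 0.28 over single libraries left out) and Hsp90aa1 without control 2 (-0.0046 to 0.77). Quantile normalization turned Hspa5 (0.33), Hsp90ab1 (0.14) and Hsph1 (1.57) positive. Hsph1 was also positive with a pseudocount of 0.1 (0.015), in both fits with exercise 1 and 2 averaged (0.062 and 0.26), and in 5 fits without 1 library, within -0.35 to 0.15. None of these reversed values passed the test, and the cause was not tested. The inducible contrast was -0.30 without Dnajb1, chosen after seeing the data, 0.49 with exercise 1 and 2 averaged, 0.29 when control 4 and exercise 3 were dropped as well, and 0.41 to 0.87 with single libraries left out. Where 1 arm held few libraries, its spread was assumed to be that of the other.

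The replicate numbers did not pair the samples, with correlations of -0.02 to 0.04 between the deviations of same-numbered libraries. With the replicate number as a block the wider count was 15, the all-gene count 1059 and the member count 0.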
